A study of Mus musculus with 8 samples.

Results

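A set of 10 genes that mark astrocytes was followed in RNA from the hippocampus of mice with and without Mbd2. They are Gfap, S100b, Slc1a3, Slc1a2, Glul, Gja1, Gjb6, Aqp4, Aldh1l1 and Sox9, chosen by symbol from a list of classical astrocyte markers, and all 10 were found among the 19201 genes measured. The libraries came from whole hippocampi of both sides, taken from mice aged 10 to 12 weeks. Wild-type mice were C57BL/6, and the Mbd2-/- mice carried a germline deletion of Mbd2, a protein that binds methylated CG dinucleotides, on a C57BL/6 background. The mice were littermates from heterozygous parents. Each genotype had 4 libraries, and each library pooled the hippocampi of 2 mice, so p-values measure the spread between pools and not between single animals. The deletion was present in every cell from conception, so no group lacks Mbd2 in astrocytes alone.

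Astrocytes are glial cells that fill the space between neurons and wrap synapses and blood vessels. They take up glutamate released at synapses, convert it to glutamine for return to neurons, buffer potassium and water, and share small molecules through gap junctions. When tissue is injured they become reactive, a state known above all for more Gfap and Vim, the proteins of their intermediate filaments.

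Because Mbd2 reads methylated CG dinucleotides, the stretches just upstream of the astrocyte genes are shown for their CG content. Promoters from RefSeq on GRCm38.p6 were matched for 8 of the 10 genes and cut to the 250 bases before the start, written 5′ to 3′ on the strand of the gene, with each CG in capitals. The 4 printed below span the range from few to many CG. They are Gfap and S100b, which had the largest differences between the genotypes in normalized counts, Gjb6, the only gene of the 10 with a fold change below 0, and Glul, with the highest CG count of the 8. Gfap is at chr11:102897201-102897450 on the minus strand, S100b at chr10:76253586-76253835 on the plus strand, Gjb6 at chr14:57133612-57133861 on the minus strand and Glul at chr1:153899679-153899928 on the plus strand.
Gfap: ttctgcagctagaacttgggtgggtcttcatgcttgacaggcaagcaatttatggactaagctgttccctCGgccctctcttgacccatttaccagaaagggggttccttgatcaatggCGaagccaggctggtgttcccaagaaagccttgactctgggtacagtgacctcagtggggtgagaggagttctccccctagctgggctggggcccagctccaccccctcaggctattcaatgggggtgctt
S100b: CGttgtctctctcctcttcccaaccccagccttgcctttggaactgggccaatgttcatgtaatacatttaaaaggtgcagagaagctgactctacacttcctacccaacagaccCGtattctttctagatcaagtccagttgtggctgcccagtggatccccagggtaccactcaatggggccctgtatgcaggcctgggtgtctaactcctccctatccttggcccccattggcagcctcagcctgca
Gjb6: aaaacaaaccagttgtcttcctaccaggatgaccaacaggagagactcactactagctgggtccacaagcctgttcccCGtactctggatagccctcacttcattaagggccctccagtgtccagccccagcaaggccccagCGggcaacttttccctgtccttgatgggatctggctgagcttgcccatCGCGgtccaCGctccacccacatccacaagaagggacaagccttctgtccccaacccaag
Glul: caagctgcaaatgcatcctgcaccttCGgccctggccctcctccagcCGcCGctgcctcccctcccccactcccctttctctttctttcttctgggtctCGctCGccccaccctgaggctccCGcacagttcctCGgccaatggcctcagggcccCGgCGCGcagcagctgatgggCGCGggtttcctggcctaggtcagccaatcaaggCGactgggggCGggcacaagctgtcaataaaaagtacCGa

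The Gfap and S100b stretches each held 2 CG, and 81.2% of all 32851 promoters in the reference had at least as many in the same window. Gjb6 held 5, a count reached by 55.6% of promoters, and Glul held 15, reached by 27.3%. Among the others, Slc1a2 held 1, Slc1a3 held 2, Gja1 held 6 and Aldh1l1 held 7, beside a median of 6 over all promoters. CG is its own reverse complement, so both strands give the same count. Few and many CG were both found among the genes with higher RNA in Mbd2-/- hippocampi described below, with Gfap at 2 and Glul at 15. The count describes the sequence only, and neither methylation nor Mbd2 binding was analysed here.

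The reads recovered from the deposited values numbered 8439570 to 23790825 per wild-type library (median 15279428) and 8087750 to 14020765 per Mbd2-/- library (median 11545382). All 9 hippocampal subfield genes that were checked, a list added after the data were seen, were expressed, with wild-type means from 734 normalized counts for Grik4 to 2127 for Fibcd1. A normalized count is the number of reads on a gene divided by the size factor of its library. Mbd2 itself had 295, 363, 371 and 354 normalized counts in wild-type libraries 1 to 4 and 244, 240, 339 and 217 in Mbd2-/- libraries 1 to 4. The groups overlapped through Mbd2-/- library 3, and the log2 fold change was -0.43 (SE 0.12, adjusted p = 0.0174, limma). It did not pass without wild-type library 3 (adjusted p = 0.0625), Mbd2-/- library 1 (0.0542) or Mbd2-/- library 2 (0.0579), or with limma fitted without trend and robust moderation (0.0731). The study's supplementary text describes the first exon as intact in this line and still transcribed, so counts over the whole gene check the labels only weakly.

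Of the 10 astrocyte genes, 7 were higher in Mbd2-/- hippocampi, by 14.7% (Gja1) to 38% (Gfap), and 0 were lower. Each gene was compared on log2(normalized count + 1) with limma, among 14504 genes with a mean of at least 10 normalized counts, and counted as called where the p-value was under 0.05 after Benjamini-Hochberg adjustment. All 10 genes passed this minimum. The 7 called were Gfap, S100b, Slc1a3, Glul, Aldh1l1, Sox9 and Gja1, while Slc1a2, Aqp4 and Gjb6 were not called. Of all genes tested, 12.0% were called higher and 10.0% lower in Mbd2-/-, and among the 4394 genes with a mean at least that of the lowest astrocyte gene (647 normalized counts), 15.3% were called higher. The median log2 fold change was 0.27 over the 10 genes and -0.00 over all genes tested. Of the 10 genes, 0 were lower by limma, also at an unadjusted p under 0.05, and 0 by edgeR or DESeq2. More astrocytes and more RNA per astrocyte cannot be told apart in RNA from whole tissue.

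**Figure D1:**
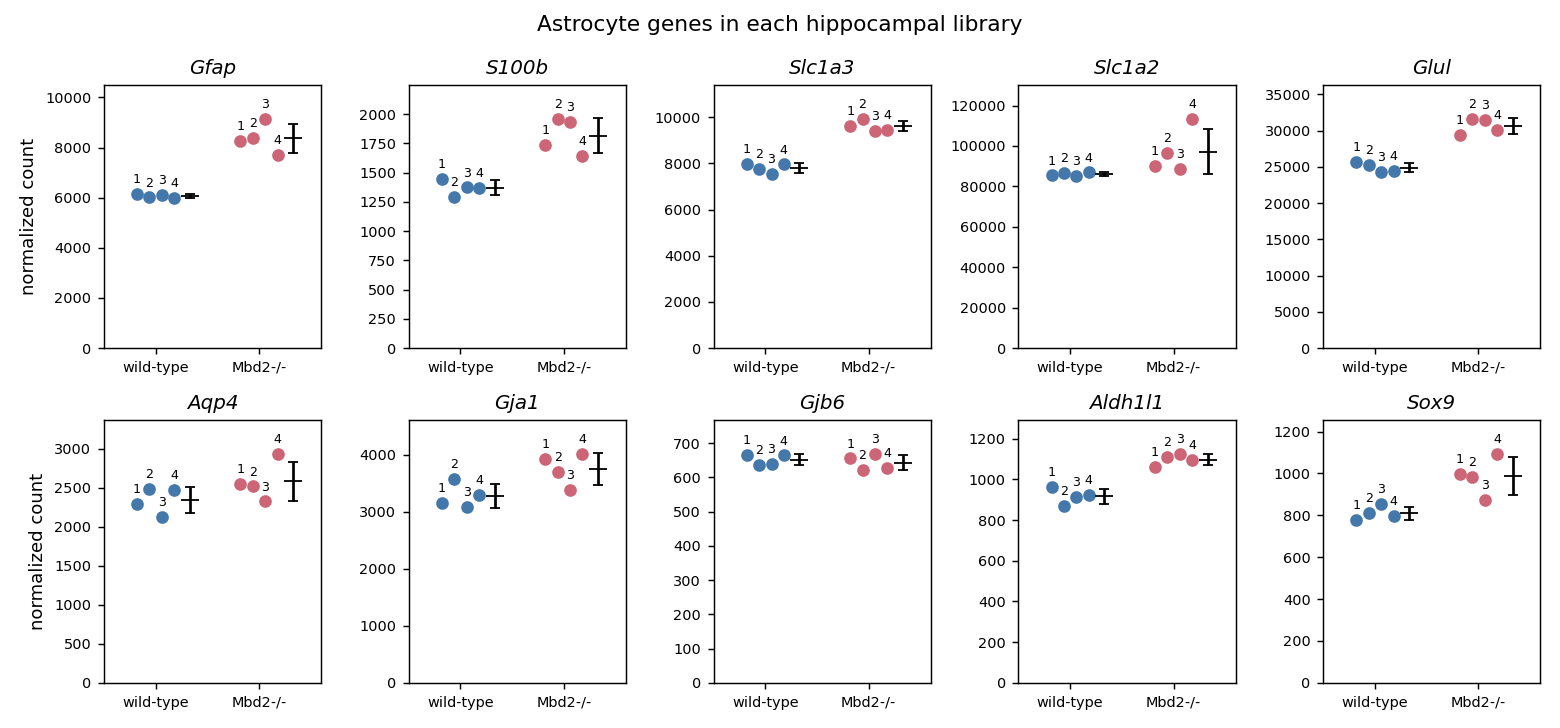
Normalized counts of the 10 astrocyte genes in each library, 1 panel per gene with its own vertical axis. Points are the 4 wild-type and the 4 Mbd2-/- libraries and short lines are group means. The groups are separate in 7 panels and overlap in those of Gja1, Aqp4 and Gjb6.

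The libraries of the genotypes did not overlap for 7 of the 10 genes, with every Mbd2-/- library above every wild-type library, a separation in this direction that 12.1% of all tested genes showed. These 7 were Gfap, S100b, Slc1a3, Slc1a2, Glul, Aldh1l1 and Sox9. For a single gene the exact two-sided permutation test of 4 against 4 libraries cannot give a p below 0.0286, and these 7 genes reached that value. The wild-type libraries lay close together, with coefficients of variation from 1.02% for Slc1a2 to 7.28% for Aqp4. In the Mbd2-/- libraries they ran from 2.32% for Slc1a3 to 11.5% for Slc1a2, and the spread was wider than in wild-type for 8 of the 10 genes, the exceptions being Slc1a3 and Aldh1l1. Reads per library ranged from 419 to 1250 for Gjb6, the lowest by normalized count, for which counting alone gives an error of 4.89% to 2.83%, and from 55714 to 163603 for Slc1a2 (0.424% to 0.247%).

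Gfap, the intermediate filament protein that is the standard astrocyte stain, differed most. On mm9 the gene spans chromosome 11 from 102748650 to 102762226, with 9 exons in its longest transcript. Its normalized counts were 6138, 6007, 6108 and 5992 in wild-type libraries 1 to 4 and 8255, 8370, 9127 and 7711 in Mbd2-/- libraries 1 to 4. The wild-type values spanned a narrow band, and the lowest Mbd2-/- library, number 4, was still well above it. The means were 6061 ± 72.4 and 8366 ± 583 (SD, n = 4 libraries each), a log2 fold change of 0.46 (SE 0.05, 95% interval 0.36 to 0.57, adjusted p = 3.3e-05, limma).

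S100b, a calcium-binding protein of astrocytes that is also made by some oligodendrocyte lineage cells, had the next largest difference in normalized counts, but not once the trend with transcript length described below was removed (log2 fold change 0.23). The gene is on chromosome 10 of mm9 from 75716598 to 75723904. It had 1449, 1291, 1374 and 1371 normalized counts in wild-type libraries 1 to 4 and 1737, 1956, 1930 and 1643 in Mbd2-/- libraries 1 to 4. As with Gfap, Mbd2-/- library 4 was the lowest of its group and still above all wild-type libraries. The mean rose by 32.5%, from 1371 ± 64.7 to 1817 ± 151 (SD, n = 4), with a log2 fold change of 0.40 (SE 0.06, 95% interval 0.27 to 0.54, adjusted p = 0.000494, limma).

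Slc1a3 and Slc1a2 encode the glutamate transporters GLAST and GLT-1, which clear most of the glutamate released at hippocampal synapses. Slc1a3, on chromosome 15 from 8584124 to 8660764, had 7978, 7757, 7534 and 7957 normalized counts in the wild-type libraries and 9640, 9915, 9425 and 9467 in the Mbd2-/- libraries. Both groups were tight, and the gap between them was wider than the range of either. The mean was 23.1% higher in Mbd2-/- (7807 ± 207 against 9612 ± 223, SD, n = 4), with a log2 fold change of 0.30 (SE 0.04, 95% interval 0.21 to 0.39, adjusted p = 0.000253, limma).

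Slc1a2, on chromosome 2 from 102498816 to 102630941, had 85450, 86733, 85177 and 86894 normalized counts in wild-type and 90204, 96559, 88802 and 113218 in Mbd2-/- libraries. All 4 Mbd2-/- libraries were above the wild-type ones, but library 4 stood far above the other 3. The log2 fold change was 0.17 (SE 0.06, 95% interval 0.04 to 0.29), and it narrowly missed the threshold (adjusted p = 0.0525, limma). It passed with edgeR (adjusted p = 0.044), with scaling by trimmed means (TMM, 0.0448), with the replicate number as a block (0.025), without Mbd2-/- library 1 (0.044) or 3 (0.0186), and without library 4 (0.0149), where the log2 fold change was 0.09.

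Glul encodes glutamine synthetase, which turns the glutamate taken up by astrocytes into glutamine. The gene is on chromosome 1 from 155747074 to 155756853. It had 25660, 25215, 24316 and 24454 normalized counts in wild-type libraries 1 to 4 and 29461, 31570, 31471 and 30051 in Mbd2-/- libraries 1 to 4. No library of one group came near the other. The mean rose by 23.0%, from 24911 ± 637 to 30639 ± 1048 (SD, n = 4), a log2 fold change of 0.30 (SE 0.04, 95% interval 0.21 to 0.38, adjusted p = 0.000197, limma).

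Gja1 and Gjb6 encode connexin 43 and connexin 30, the main gap junction proteins of astrocytes. Gja1, on chromosome 10 from 56097106 to 56110225, had 3149, 3571, 3090 and 3286 normalized counts in wild-type and 3930, 3695, 3385 and 4010 in Mbd2-/- libraries. The groups overlapped, because Mbd2-/- library 3 was below wild-type library 2. The log2 fold change of 0.20 (SE 0.06, 95% interval 0.07 to 0.33) passed the test (adjusted p = 0.0298, limma), with an exact permutation p of 0.0571. The call was lost without wild-type library 1 (adjusted p = 0.0987), 3 (0.108) or 4 (0.0698), without Mbd2-/- library 1 (0.098) or 2 (0.0675), and with limma fitted without trend and robust moderation (0.106).

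Gjb6, on chromosome 14 from 57742140 to 57752448, had 665, 637, 639 and 664 normalized counts in wild-type and 655, 621, 668 and 628 in Mbd2-/- libraries. The groups were intermixed, with means of 651 ± 15.4 and 643 ± 22.3 (SD, n = 4). The log2 fold change was -0.02 (SE 0.06, adjusted p = 0.841, limma), and its 95% interval of -0.14 to 0.10 lay below the interval of Gfap, S100b, Slc1a3, Glul, Aldh1l1 and Sox9. The difference between the connexins was looked at within libraries, after the values had been seen. Gja1 had 5.03 ± 0.393 times the counts of Gjb6 in wild-type libraries and 5.85 ± 0.558 times in those of Mbd2-/- mice (SD, n = 4), a difference of 0.22 on the log2 scale that did not pass (exact two-sided permutation p = 0.0571, adjusted p = 0.0857 over 3 such ratios).

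The other ratios compared were of genes that shared a function or are both used as astrocyte stains. Slc1a3 over Slc1a2 was 0.0907 ± 0.0022 in wild-type mice and 0.0998 ± 0.011 in Mbd2-/- mice (SD, n = 4, exact permutation p = 0.143, adjusted p = 0.143), and Mbd2-/- library 4 was at 0.0836 while the other 3 were at 0.103 to 0.107. Gfap over Aldh1l1 was 6.62 ± 0.233 in wild-type mice and 7.62 ± 0.451 in Mbd2-/- mice (SD, n = 4). All 4 Mbd2-/- values of this ratio were above all wild-type values (log2 difference 0.20, exact permutation p = 0.0286, adjusted p = 0.0857). The genes of a pair differ in transcript length, and with the length trend described below removed, the log2 differences were 0.12 for Gfap over Aldh1l1, 0.02 for Slc1a3 over Slc1a2 and 0.30 for Gja1 over Gjb6.

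Aqp4 encodes aquaporin 4, the water channel of astrocyte endfeet on blood vessels. The gene is on chromosome 18 from 15547903 to 15562193, and had 2292, 2485, 2124 and 2472 normalized counts in wild-type and 2549, 2519, 2327 and 2935 in Mbd2-/- libraries. Mbd2-/- library 3 was inside the wild-type range and library 4 was the highest. The mean was 2343 ± 171 in wild-type and 2583 ± 255 in Mbd2-/- (SD, n = 4), and the log2 fold change of 0.14 (SE 0.07, 95% interval -0.01 to 0.28) was not called (adjusted p = 0.163, limma). It was 0.07 without Mbd2-/- library 4 and 0.09 without wild-type library 3.

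Aldh1l1 encodes a folate enzyme that is used to mark astrocytes throughout the brain. The gene lies on chromosome 6 from 90436421 to 90550197 and has 23 exons in its longest transcript. It had 962, 869, 913 and 922 normalized counts in wild-type and 1061, 1110, 1125 and 1095 in Mbd2-/- libraries. All Mbd2-/- values were above all wild-type values, and their spread was small. The mean rose by 19.8%, from 917 ± 38.3 to 1098 ± 27.4 (SD, n = 4), a log2 fold change of 0.26 (SE 0.05, 95% interval 0.15 to 0.38, adjusted p = 0.0034, limma).

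Sox9, the transcription factor that turns neural precursors towards glia and stays on in the nuclei of adult astrocytes, lies on chromosome 11 from 112643538 to 112649074. It had 778, 810, 854 and 799 normalized counts in wild-type and 999, 984, 873 and 1093 in Mbd2-/- libraries. Mbd2-/- library 3 was only just above the highest wild-type library. The mean rose by 21.8%, from 810 ± 32.1 to 987 ± 89.8 (SD, n = 4), a log2 fold change of 0.28 (SE 0.07, 95% interval 0.14 to 0.42, adjusted p = 0.00762, limma).

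**Figure D2:**
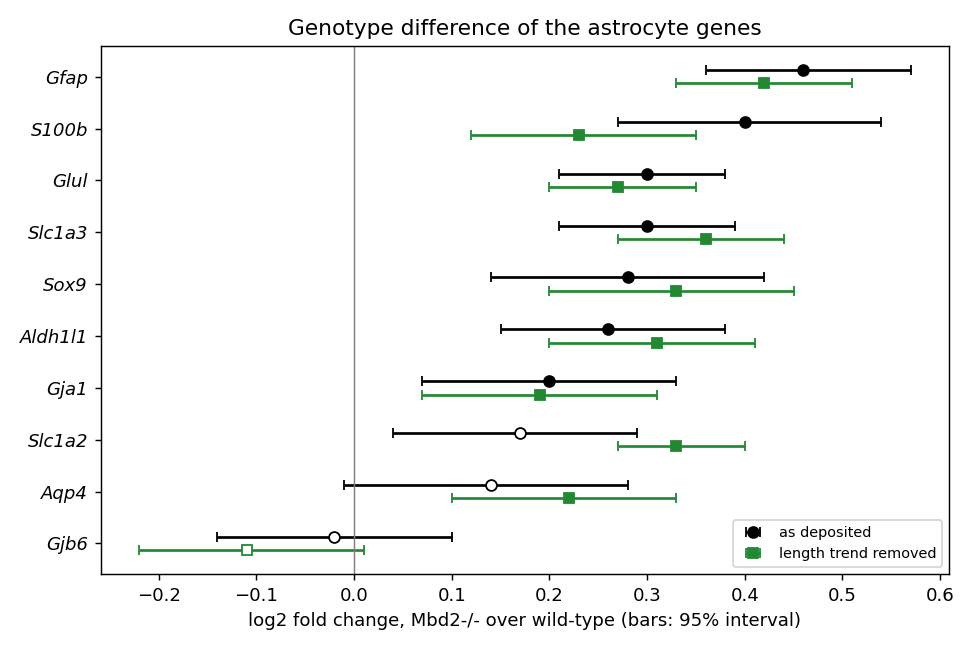
Log2 fold change of each astrocyte gene in Mbd2-/- over wild-type hippocampi, with 95% intervals from limma, for the normalized counts and after removal of the trend with transcript length. Gfap is the highest at 0.46, and Gjb6, at -0.02, is the only gene below 0. Slc1a2 moves from 0.17 to 0.33 and S100b from 0.40 to 0.23 when the trend is removed.

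A trend with transcript length ran through the Mbd2-/- libraries. Across genes, the deviation of a library from the wild-type mean correlated with log2 transcript length with a Spearman's rho of -0.48, -0.43, -0.48 and -0.1 in Mbd2-/- libraries 1 to 4, so that long transcripts were relatively low in the first 3, and with -0.07 to 0.06 in the wild-type libraries. Over all genes, the median length of those called higher was 1856 bases and of those called lower 4974 bases. The astrocyte genes had a median length of 3620 bases, beside 3188 for all tested genes. They ran from 1484 bases (S100b) to 11595 (Slc1a2), and Gfap, at 2648, was also below the median of all tested genes. RNA quality was not measured here, and whether the trend is technical was not tested.

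When this trend was removed from each library with a loess curve, 9 of the 10 genes were called higher and 0 lower, while over the 14182 genes with a known length 7.97% were called higher and 6.80% lower. The median of the 10 log2 fold changes was 0.29, beside 0.27 with the trend in place. Slc1a2, with the longest transcript of the 10 (11595 bases), rose most. Its deviations from the wild-type mean in Mbd2-/- libraries 1 to 4 became 0.31, 0.34, 0.32 and 0.37 on the log2 scale, and their SD fell from 0.16 to 0.02. Library 4 no longer stood apart, and the log2 fold change of Slc1a2 was 0.33 (adjusted p = 1.16e-06, limma).

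Aqp4, at 5125 bases, was also called only after the trend was removed, with a log2 fold change of 0.22 (adjusted p = 0.0159, limma). S100b has the shortest transcript of the 10, at 1484 bases, and its log2 fold change fell from 0.40 to 0.23 but was still called (adjusted p = 0.00657). Gfap stayed highest at 0.42 (adjusted p = 2.4e-06). Slc1a3 at 0.36, Sox9 at 0.33, Aldh1l1 at 0.31, Glul at 0.27 and Gja1 at 0.19 were also called, with adjusted p-values from 8.46e-06 to 0.0285. Gjb6 remained uncalled, at -0.11 (95% interval -0.22 to 0.01, adjusted p = 0.199).

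To order the genes by level, each normalized count was divided by the length of the longest transcript in kilobases. In wild-type hippocampi Glul was the highest at 8922 ± 228 normalized counts per kb (SD, n = 4), followed by Slc1a2 at 7422 ± 75.5. Gfap was at 2289 ± 27.3, Slc1a3 at 1760 ± 46.7, Gja1 at 1054 ± 69.1 and S100b at 924 ± 43.6. Aqp4 followed at 457 ± 33.3, Gjb6 at 309 ± 7.3, Aldh1l1 at 220 ± 9.16 and Sox9 at 196 ± 7.77. The genes of glutamate uptake and glutamine synthesis therefore included the highest levels, and the transcription factor was the lowest. In the wild-type libraries no neighbours in this order overlapped, with Sox9 (188 to 207) and Aldh1l1 (208 to 230) the closest. In Mbd2-/- hippocampi S100b (1224 ± 102) and Gja1 (1209 ± 90.3) overlapped and changed places, and the order of the other 8 means was the same. The Mbd2-/- libraries of Aldh1l1 (254 to 270) and Sox9 (211 to 264) also overlapped. The levels depend on the length used, and a shorter transcript in the hippocampus would raise them.

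**Figure D3:**
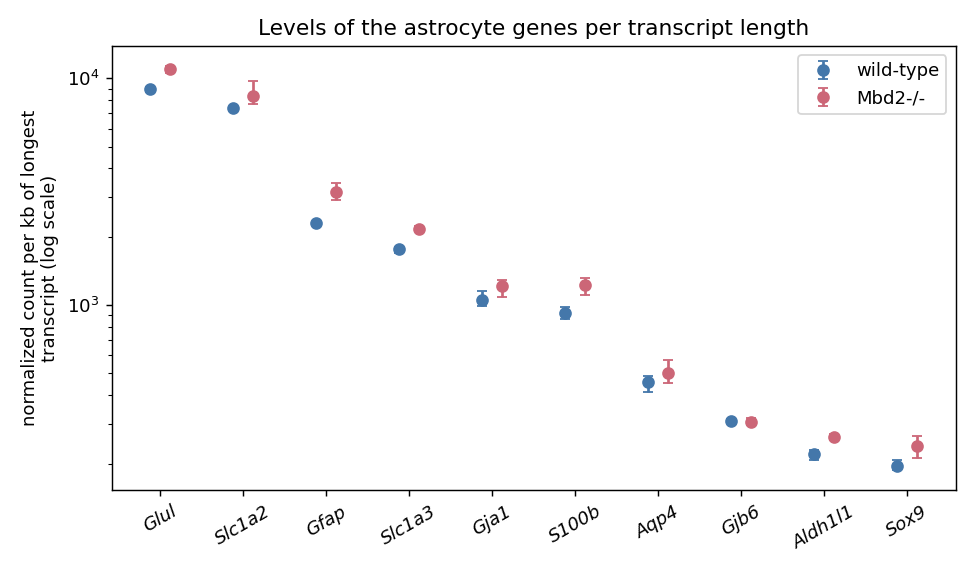
Level of each astrocyte gene in normalized counts per kb of its longest transcript, on a log axis, in order of the wild-type mean. Points are group means for wild-type and Mbd2-/-, and bars run from the lowest to the highest library of the group. Glul and Slc1a2 lead, and Sox9 has the lowest mean in both genotypes, with Mbd2-/- libraries that overlap those of Aldh1l1.

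The same comparison was read for 7 lists of other genes of astrocyte biology, which held 170 genes, of which 161 were tested. Of these, 46 were higher and 11 lower in Mbd2-/-, with a median log2 fold change of 0.13. The lists are described by their counts beside the 12.0% and 10.0% of all tested genes.

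The metabolism and secreted protein list had the most genes called, with 15 of 27 higher, 1 lower and a median of 0.24. With the length trend removed these were 12 higher, 1 lower and a median of 0.15. Ppp1r3c, which brings a phosphatase to glycogen, rose from 1078 ± 45.5 to 1436 ± 22.9 normalized counts (SD, n = 4, log2 fold change 0.41, adjusted p = 0.000109, limma). Cst3, the secreted protease inhibitor cystatin C, had a log2 fold change of 0.41, Aldoc, the brain form of the glycolytic enzyme aldolase, 0.31, and Mt1, a metal-binding metallothionein, 0.67. Cst3 was at 0.13 and Mt1 at 0.32 when the length trend was removed, and both were still called (adjusted p = 0.032 and 0.00332). Agt, the precursor of angiotensin, was the one called lower, at -0.31 (adjusted p = 0.0164), a gene named after its values were seen. It was not called without wild-type library 1 (adjusted p = 0.0522) or 2 (0.0556) or with limma fitted without trend and robust moderation (0.0581).

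Of the 20 astrocyte transcription factors, 8 were higher and 0 lower by limma, with a median of 0.25. Sox2, a partner of Sox9 in the same family, rose from 425 ± 30.3 to 566 ± 43 normalized counts (SD, n = 4, log2 fold change 0.41, adjusted p = 0.00122, limma). Hes5, a target of Notch signalling, had a log2 fold change of 0.56. Id3 had 0.53 and Id2 0.44, and both belong to the Id family, which holds back differentiation. With the length trend removed, 14 of the 20 were higher and the median stayed at 0.25, while Hes5 was at 0.36, Id3 at 0.33, Id2 at 0.24 and Sox2 at 0.36, all 4 still called.

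Among 24 receptors, transporters and surface proteins, 9 were higher and 2 lower, with a median of 0.16. Ndrg2, a protein enriched in astrocytes, rose from 9652 ± 262 to 12360 ± 467 normalized counts (SD, n = 4, log2 fold change 0.36, adjusted p = 9.52e-05, limma). The zinc transporter Slc39a12 had a log2 fold change of 0.44, the membrane protein Ttyh1 0.31 and the growth factor receptor Fgfr3 0.28. The count of genes called higher was 6 without wild-type library 1, wild-type library 4 or Mbd2-/- library 2.

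In the list of ion, water and endfoot genes, 4 of 15 were higher and 1 lower, with a median of 0.07. Trpv4, a cation channel that opens on cell swelling, rose from 80.7 ± 10.9 to 138 ± 17.4 normalized counts (SD, n = 4, log2 fold change 0.77, adjusted p = 0.000675, limma). Trpv4 is also strongly expressed in choroid plexus. Mlc1 and Hepacam, which form a complex at astrocyte junctions, had log2 fold changes of 0.27 and 0.16. The 4 genes called higher became 2 without wild-type library 1, 2 or 3 or Mbd2-/- library 1 or 2, and 9 with the length trend removed, among them the potassium channel Kcnj10, a gene named after its values were seen (0.20, adjusted p = 0.00329).

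Of 18 other genes of glutamate and glutamine handling, many of them neuronal, 2 were higher, 4 lower and 12 not called, with a median of -0.10. With the length trend removed, 2 were higher and 6 lower, with a median of -0.13. Without Mbd2-/- library 4, 3 were higher and 5 lower, with a median of -0.04. Slc38a3, which carries glutamine out of astrocytes, rose from 862 ± 24.3 to 1045 ± 66.7 normalized counts (SD, n = 4, log2 fold change 0.27, adjusted p = 0.0041, limma), and Glud1, glutamate dehydrogenase, had 0.22. Slc38a1, which takes glutamine into neurons, was lower, from 2666 ± 112 to 2173 ± 126 (log2 fold change -0.30, adjusted p = 0.00143). With the length trend removed Slc38a1 was at -0.17 and still called (adjusted p = 0.0161, limma).

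Of 37 genes in the reactive astrocyte list, 36 were in the table and 31 were tested, and 3 were higher and 1 lower, with a median of -0.01. With the length trend removed, 2 were higher (Vim and Nes) and 3 lower (Lcn2, Serpina3n and Amigo2), of which Nes, Serpina3n and Amigo2 are named after their values were seen. Vim, which is induced with Gfap in reactive astrocytes, rose from 524 ± 11.5 to 670 ± 48 normalized counts (SD, n = 4, log2 fold change 0.35, adjusted p = 0.00147, limma). S100a10 had a log2 fold change of 0.52 and H2-D1 0.35, and both missed the threshold once the length trend was removed (adjusted p = 0.277 and 0.123). Lcn2, a secreted protein strongly induced in reactive astrocytes, was lower, with 20.3 ± 3.43 in wild-type and 9.54 ± 2.88 in Mbd2-/- libraries (-1.05, adjusted p = 0.0124). Its counts were low, and DESeq2 gave it no adjusted p.

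Among 35 relatives of the 10 genes by family, 32 were tested, and 7 were higher and 3 lower, with a median of 0.06. The S100 proteins S100a16, S100a1 and S100a6 had log2 fold changes of 0.51, 0.60 and 0.66, beside 0.40 for S100b. Like S100b they came down when the length trend was removed, to 0.28, 0.27 and 0.35, and were still called. S100a10 and S100a13, the latter named after its values were seen, each had a log2 fold change of 0.52 and lost their calls with the trend removed, at 0.19 (adjusted p = 0.277) and 0.20 (0.212). Aqp1, the water channel of the choroid plexus, rose from 119 ± 9.17 to 271 ± 21 normalized counts (SD, n = 4, log2 fold change 1.19, adjusted p = 7.23e-07, limma), beside 0.14 for Aqp4. Slc1a1, the neuronal glutamate transporter, was lower at -0.18 (adjusted p = 0.0201, a gene named after its values were seen), beside 0.30 for Slc1a3.

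Markers of other cell types and regions also differed between the genotypes, and their part in the astrocyte result was not tested. The 10 astrocyte genes together summed to 132130 to 135375 normalized counts in wild-type and 148491 to 171851 in Mbd2-/- libraries. Most of each sum came from Slc1a2, which was not called. It had a wild-type mean of 86063 and 113218 in Mbd2-/- library 4, the library with the highest sum. Of 15 choroid plexus markers, 14 were higher and 0 lower by limma, with summed levels of 25975 to 27845 in wild-type and 49088 to 55286 in Mbd2-/- libraries. Ttr and Enpp2, the most expressed of these, had log2 fold changes of 1.32 and 0.61. Of 12 thalamus markers, 10 were lower, with sums of 5604 to 5759 in wild-type and 3798 to 4306 in Mbd2-/-. Of 12 oligodendrocyte markers, 9 were higher, with sums of 82656 to 84273 and 97744 to 103982, and Mbp, the most expressed, had a log2 fold change of 0.41. The count was 6 without wild-type library 1 or 3 or Mbd2-/- library 2, and with limma fitted without trend and robust moderation. It was 11 with edgeR, DESeq2 or the replicate block, and without Mbd2-/- library 4. Of 12 microglial markers, 7 were higher, with sums of 6101 to 6321 and 6862 to 7815, and 4 were higher with the length trend removed or without wild-type library 1.

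Of 12 endothelial and pericyte markers, 5 were higher and 0 lower, of 10 meningeal markers 4 and 2 (4 and 1 without wild-type library 3 or 4), and of 12 neural stem cell and neuroblast markers 4 and 0, with Sox2 and Hes5, which astrocytes also express, among these last 4. Of 12 ependymal markers, 4 were higher and 0 lower by limma. This became 0 with the length trend removed, 1 without wild-type library 1 or 2 or Mbd2-/- library 2 or 3, and 2 without any 1 of wild-type libraries 3 and 4 and Mbd2-/- library 1. Of 8 oligodendrocyte precursor markers, 0 were higher and 3 lower, which became 0 lower with the length trend removed, 1 without Mbd2-/- library 1, and 2 without any other single library except Mbd2-/- library 4. Of 12 neuronal markers, 1 was higher and 3 lower, with a median of -0.08. These became 2 higher and 6 lower with the length trend removed, and 2 higher and 5 lower without Mbd2-/- library 3. Without Mbd2-/- library 4 the median was -0.02. The summed level of the neuronal markers was 171423 to 176611 in wild-type and 180604 to 185634 in Mbd2-/- libraries. Camk2a, the one called higher in the main test, had a log2 fold change of 0.27. No gene of these lists was at 0 in every library. The median log2 fold changes were 0.87 for choroid plexus, 0.29 for microglia, 0.27 for the 10 astrocyte genes, 0.24 for ependyma, 0.22 for oligodendrocytes, 0.20 for neural stem cells and neuroblasts and 0.17 for endothelium and pericytes. They were -0.01 for meninges, -0.10 for oligodendrocyte precursors and -0.54 for thalamus. With the length trend removed the medians were 0.86 for choroid plexus and 0.29 for the 10 astrocyte genes. Oligodendrocytes were at 0.21, endothelium and pericytes at 0.21, microglia at 0.20, ependyma at 0.09 and neural stem cells and neuroblasts at 0.08. Meninges were at -0.01, oligodendrocyte precursors at -0.11, neurons at -0.11 and thalamus at -0.60.

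**Figure D4:**
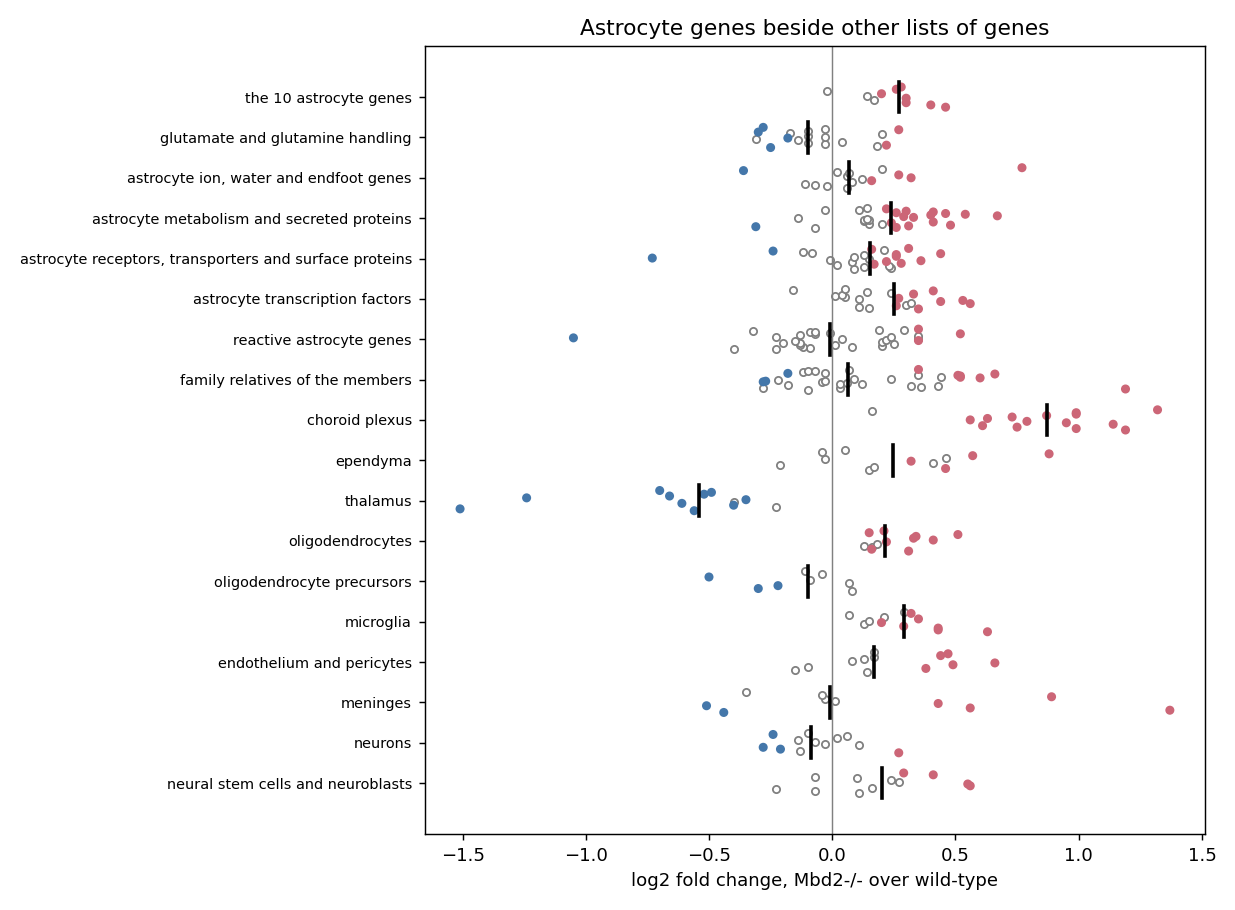
Log2 fold change in Mbd2-/- over wild-type of every tested gene in each list, with the list median as a line. The 10 astrocyte genes have a median of 0.27, the choroid plexus list is highest at 0.87 and the thalamus list lowest at -0.54.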

How the data were processed

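RNA from 4 wild-type and 4 Mbd2-/- pools of hippocampi was depleted of ribosomal RNA and sequenced as paired ends of 100 bases. According to the study's methods, reads were deduplicated by the authors, mapped to mm9 with STAR and tested for differential expression with DESeq2. The tool that counted reads on genes is not given in the sources used here. The deposited signal is a normalized count, for which the authors divided the reads on a gene by a size factor that DESeq2 sets for each library. The deposited table also holds the authors' mean over all libraries and the log2 fold changes, standard errors, Wald statistics and p-values of their own comparison, and none of these columns was used. Reads were recovered from the steps of the values, and 100% came out as whole numbers at a tolerance of 0.01 reads. The protocol names no molecular identifiers, so the counting errors given cover reads and not molecules.

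The values were tested as log2(normalized count + 1) in limma (3.58.1, R 4.3.3) over 14504 genes, without covariates, and the moderation was robust and followed the mean-variance trend. Fold changes are on this scale, which slightly understates changes of low genes. Transcript lengths and positions come from GENCODE vM1 (mm9), matched for 94.3% of symbols, and 97.8% of tested genes had a length. The alternatives were a pseudocount of 0.5 or 8, no filter or a mean of at least 50, TMM and upper quartile scaling, edgeR 4.0.16 (quasi-likelihood test) and DESeq2 1.42.0 on the recovered reads, limma without trend and robust moderation, the replicate number as a block, removal of the length trend, and each library left out. The test was first checked on simulated data. It recovered 57.6% of changes of 1.3-fold, 74.6% of 1.5-fold and 95.5% of 2-fold, with 5 false calls, so changes of the size seen here can be missed.

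The 10 genes and the lists were chosen with earlier results of these data known. The genes named are the 10, Mbd2, up to 4 called genes with the smallest p in each list of astrocyte biology, and up to 2 most expressed genes of each list of another cell type. Any other gene is named as chosen afterwards. Some genes that the rule selects are not reported here. Promoters of 8 of the 10 genes were matched by symbol in RefSeq on GRCm38.p6, and none was matched for Aqp4 and Sox9. No library repeated another, since the squared difference of a pair of the same genotype was 2.16 to 18.2 times its counting variance, with pairs that include Mbd2-/- library 4 at 10.7 to 18.2.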

Additional observations from a re-analysis of the deposited data

How the results depend on the processing

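Gfap, Slc1a3, Aldh1l1, S100b, Glul and Sox9 were called higher under all 11 alternatives that keep every library and without each library in turn. Between 6 and 9 of the 10 genes were called in any setting, and their median log2 fold change stayed between 0.25 and 0.29. Gjb6 was below 0 and uncalled throughout, and Aqp4 was called only with the length trend removed. The number of genes called over the whole table was 3185, fell to 2094 with the length trend removed and ran from 2068 (without wild-type library 3) to 5155 (without Mbd2-/- library 4) when single libraries were left out. It was also low without wild-type library 1 (2098), Mbd2-/- library 1 (2099) and Mbd2-/- library 2 (2108). The cause of these shifts was not tested.

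The sample labels do not say whether pools with the same replicate number were paired, and the main test assumed no pairing. Libraries of the same number had correlations of deviations of -0.103, -0.057, 0.074 and 0.035. With the replicate number as a block, 8 of the 10 genes and 3192 of all genes were called, the added gene being Slc1a2, and the median log2 fold change was 0.27.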
